A study of Homo sapiens with 2 samples.

Results

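Solute carriers are membrane proteins that move sugars, amino acids, ions, vitamins and nucleotides across cell membranes. Their messages were examined in HEK293T, a long-established cell line from human embryonic kidney that carries the SV40 large T antigen. Protein-coding genes whose symbol begins with SLC and a digit were taken when they had at least 20 reads summed over both libraries, and 182 of 375 such genes did. The other 193 were split between 120 with no read in either library and 73 with 1 to 19 reads. In the whole series 57820 gene IDs were counted.

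Messenger RNA was sequenced in 1 library of cells given a control siRNA and 1 library of cells given an siRNA against SRα (gene SRPRA), which is part of the ER docking receptor of SRP, the signal recognition particle. These are called control and depleted below, and paired values are given in that order. The sources used here give neither a dose of siRNA nor a time after transfection. The comparison asks how message levels differ when SRα is depleted. With 1 library per group there is no replicate, no test was made, and every interval below covers counting error only. In these bulk samples fewer cells and less RNA per cell cannot be told apart.

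Most solute carriers cross the membrane many times and enter it at the endoplasmic reticulum (ER), where SRP and its receptor bring ribosomes to the SEC61 channel. From there they stay in the ER, travel to the Golgi, endosomes or lysosomes, or reach the plasma membrane. The carriers of the SLC25 family are different. They are made in the cytosol, recognised by TOM receptors on the mitochondrial surface and put into the inner membrane by the TIM22 complex, so that they do not use SRP. The family therefore holds both kinds of membrane protein side by side.

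By textbook location, 81 of the 182 genes were placed at the plasma membrane, 61 on internal membranes of the secretory and endolysosomal system (called endomembrane here) and 32 were SLC25 mitochondrial carriers. A further 5 had a mixed location, and 3 are named after a carrier without being one. Those 3 are SLC2A4RG, SLC4A1AP and SLC7A6OS. Of the SLC25 genes, SLC25A17 works in the peroxisome and SLC25A46 lies in the outer mitochondrial membrane. The placement was made by hand, some carriers have several locations, and that of SLC30A9 among the endomembrane carriers is uncertain. The members fell into 43 of the 51 SLC families with a protein-coding gene.

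The split between SLC25 and the other carriers is visible in the coding sequences, while plasma membrane and endomembrane carriers overlap widely. Sequences were taken from the longest coding transcript of each gene in GENCODE 29 (GRCh38) and matched to the counts by gene ID alone. Windows of 19 residues with a mean Kyte-Doolittle hydropathy of at least 1.6 were counted as hydrophobic segments. Such segments are not a count of membrane crossings, since SLC25A5, a carrier of the inner mitochondrial membrane, had 0. The plasma membrane carriers had a median of 9 segments (range 1 to 13) and the endomembrane carriers 6 (range 2 to 14), against 1 (range 0 to 3) in the SLC25 carriers and 0 in all 10263 protein-coding genes with at least 20 reads. At the low end of the plasma membrane class was SLC3A2, a heavy chain with a single membrane anchor. The mitochondrial carrier signature, proline and then, 2 residues on, aspartate or glutamate and, 3 residues further, lysine or arginine, was found at least 3 times in 21 of 32 SLC25 carriers. No plasma membrane or endomembrane member held it 3 times, and 3.39% of the 10263 protein-coding genes did. At least 1 match was found in 31 of 32 SLC25 carriers, in 26 of 81 plasma membrane carriers, in 12 of 61 endomembrane carriers and in 33.9% of protein-coding genes, so a single match was common everywhere.

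The 5 stretches below show that signature in the coding strands of the most-read mitochondrial carriers, SLC25A5 on chromosome X (plus strand), at bases 82 to 99, 397 to 414 and 688 to 705 of its coding sequence, and SLC25A3 on chromosome 12 (plus strand), at bases 253 to 270 and 544 to 561. Capitals mark the codons of the proline, the acidic residue and the basic residue.
SLC25A5 repeat 1: CCCatcGAGcgggtcAAG
SLC25A5 repeat 2: CCTcttGATtttgccCGT
SLC25A5 repeat 3: CCAtttGACactgttCGC
SLC25A3 repeat 1: CCTctaGATctggttAAA
SLC25A3 repeat 2: CCTatgGAAgctgctAAG

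For contrast, the first hydrophobic segment is shown for 4 of the most-read plasma membrane carriers, all inserted at the ER. They lie on chromosome 1 (minus strand) for SLC16A1, at bases 259 to 315 of the coding sequence, chromosome 11 (plus strand) for SLC3A2, at bases 562 to 618, chromosome 19 (minus strand) for SLC1A5, at bases 160 to 216, and chromosome 12 (minus strand) for SLC38A2, at bases 301 to 357. Capitals mark codons with T at the second position, which in the genetic code stand for phenylalanine, leucine, isoleucine, methionine or valine. Of 19 codons, 9 had it in SLC16A1, 12 in SLC3A2, 12 in SLC1A5 and 13 in SLC38A2.
SLC16A1: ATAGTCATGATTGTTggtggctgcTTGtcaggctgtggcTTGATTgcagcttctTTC
SLC3A2: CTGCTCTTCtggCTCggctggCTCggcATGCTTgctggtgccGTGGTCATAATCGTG
SLC1A5: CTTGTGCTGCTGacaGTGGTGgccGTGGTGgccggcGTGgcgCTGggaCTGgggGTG
SLC38A2: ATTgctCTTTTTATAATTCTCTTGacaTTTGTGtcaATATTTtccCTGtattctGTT

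The control library held 2445200 reads in genes and the depleted library 3896721. Solute carriers took 32667 of them (1.34%) in control and 48870 (1.25%) in depleted cells. SRPRA itself had 507 and 449 reads, or 205 and 117 CPM (counts scaled to the TMM-adjusted size of each library), which is 0.570 of the control level (95% counting interval 0.501 to 0.648). Of 16 transporters that mark mature kidney tubule segments, among them SLC12A1, SLC22A6 and SLC34A1, 13 had no read in either library, and SLC5A12, SLC13A3 and SLC26A4 had 1 to 5 reads in control and 2 to 8 in depleted cells. Thus none of these defining transporters of the kidney reached 20 reads. Of genes often reported in HEK293 lines, NEFM had 273 and 528 reads, LIN28B had 93 and 161, VIM had 771 and 1485, INA had 10 and 28, and PAX2 had 1 and 7. Scaled to library size, the 4 of these with at least 20 reads were all higher in depleted cells. Their summed reads, mostly those of VIM and NEFM, gave a log2 ratio, depleted over control, of 0.30 (95% counting interval 0.20 to 0.41). On this scale the intervals of VIM (0.18 to 0.44) and NEFM (0.10 to 0.53) lay above 0. Those of LIN28B (-0.22 to 0.54) and INA (-0.24 to 2.06) included 0. Markers of blood, endothelium and liver (PTPRC, HBB, CD3E, CDH5 and ALB) had 0 reads in control and 1 in all in depleted cells.

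Read numbers were very uneven within the family. The 10 most-read members held 49.3% of the reads of all 182, whereas 64 members had fewer than 100. Levels between genes are given as RPKM, which is CPM divided by the exonic length in kilobases (lengths from GENCODE 29). By this measure the ADP/ATP carrier SLC25A5, which exchanges nucleotides across the inner mitochondrial membrane, was highest, at 510 RPKM in control and 519 in depleted cells. Next came the lactate and pyruvate carrier SLC16A1 (MCT1) at 416 and 394 RPKM. The glutamine carrier SLC1A5 stood at 161 and 152 RPKM, and SLC3A2 (4F2hc), the heavy chain of several amino acid exchangers, at 143 and 129 RPKM. These 4 kept their order in both libraries, and the next, the neutral amino acid carrier SLC38A2, was at 85.9 and 85.2 RPKM. Another ADP/ATP carrier, SLC25A6, whose gene has an identical copy on the other sex chromosome, is listed at 0 reads in both libraries. Reads without a unique alignment are listed apart in the files and belong to no gene. SLC25A5 and SLC25A3 have 9 and 3 pseudogene entries in the files, so their levels are uncertain too.

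**Figure D1:**
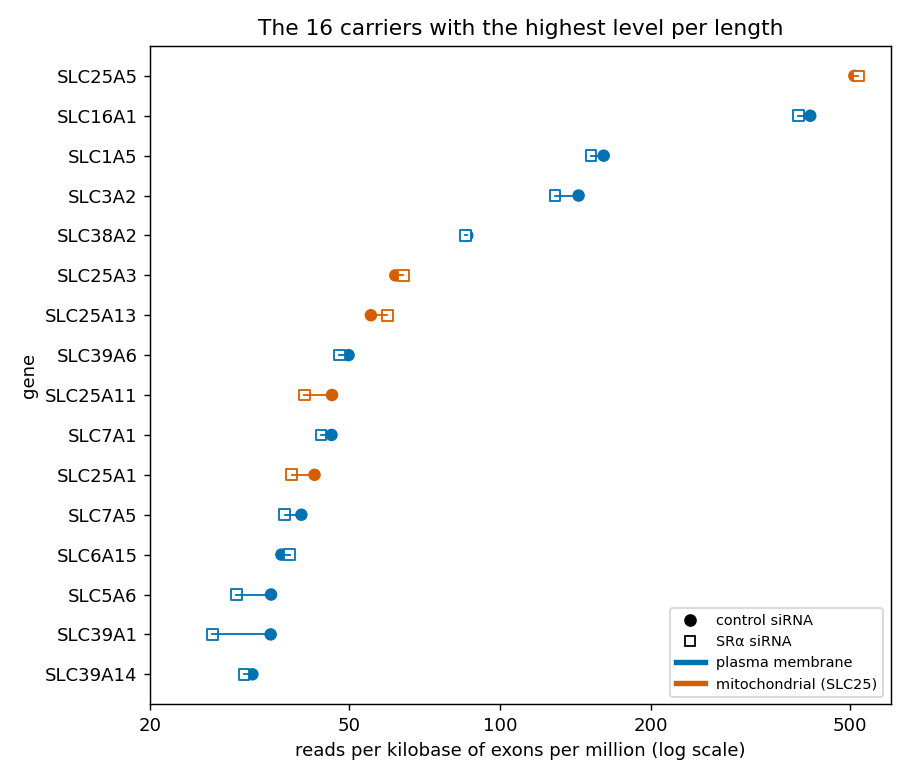
The 16 solute carriers with the highest level per length, in RPKM on a log axis, with 1 point for each library and color for the class. SLC25A5 and SLC16A1 lie apart at the top, and control (filled circles) and depleted (open squares) points lie close together for most genes, with SLC39A1 the widest apart (34.8 and 26.6 RPKM).

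Differences between the libraries were small for nearly all solute carriers. Over the 182 members the median log2 ratio, depleted over control, was -0.06, and 106 were lower, or 58.2%, against a median of 0.01 and 47.6% lower among all 10263 protein-coding genes with at least 20 reads. Only 1 member was at least 2-fold lower and 0 were at least 2-fold higher, where 0.516% of protein-coding genes passed that size in each direction. At 1.5-fold, 8 members were lower, against a background of 3.29%, and 5 were higher, against 3.21%. The counting interval lay wholly below a ratio of 1 for 10 members (background 3.65%) and wholly above it for 2 (background 6.07%). The 2-fold and 1.5-fold counts were thus near the background, and the shift of the family lay in many small differences.

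**Figure D2:**
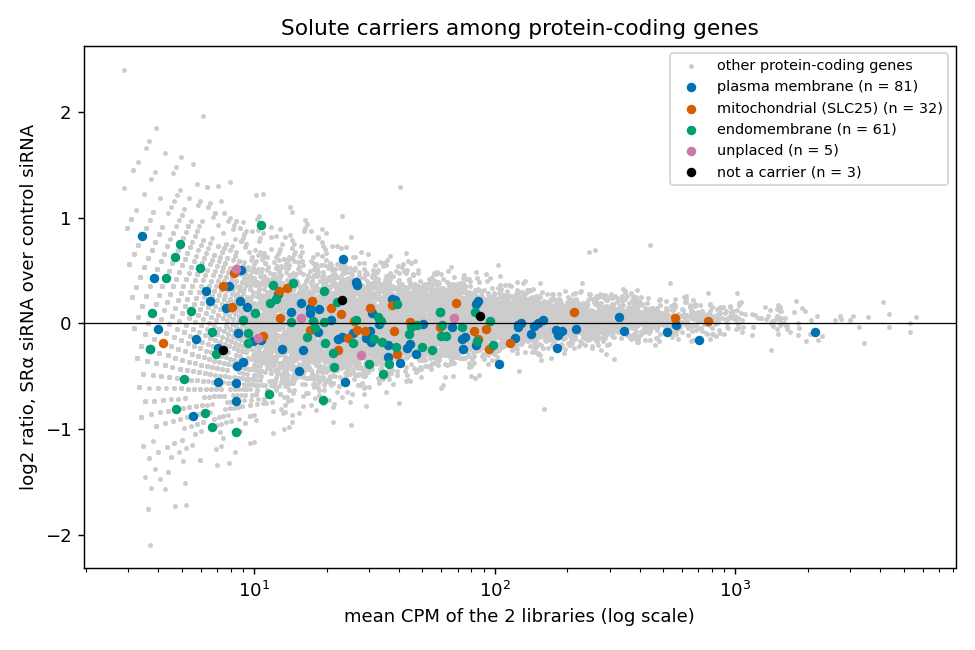
Log2 ratio of each protein-coding gene with at least 20 reads (vertical axis) against its mean CPM in the 2 libraries (horizontal log axis), with the 182 members in color by class. The spread narrows with level, and the carriers lie within the cloud of other genes at every level.

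Plasma membrane and mitochondrial carriers lay apart by a small amount. Of the 81 plasma membrane carriers 53 were lower (65.4%) with a median log2 ratio of -0.07, and of the 32 SLC25 carriers 15 were lower (46.9%) with a median of 0.02, a difference of medians of -0.09. Of the 61 endomembrane carriers 35 were lower, with a median of -0.04. At least 1.5-fold lower were 6 of these 61, 2 of the plasma membrane carriers and 0 of the SLC25 carriers, against a background of 3.29%. Of the 6, 5 had fewer than 100 reads. Summed over each class, plasma membrane carriers had 21181 and 31319 reads, or 8554 and 8139 CPM, a log2 ratio of -0.07 (95% counting interval -0.097 to -0.046). SLC25 carriers had 6456 and 10095 reads, or 2607 and 2624 CPM, a log2 ratio of 0.01 (-0.04 to 0.05). Endomembrane carriers had 4425 and 6495 reads, for a log2 ratio of -0.08 (-0.14 to -0.03). In summed reads the interval of the SLC25 carriers included a ratio of 1 and those of both other classes did not. Without SLC25A5 and SLC25A3, whose levels are uncertain, the other 30 SLC25 carriers had 3203 and 4907 reads. Their summed log2 ratio was -0.02 (-0.08 to 0.04) and their median -0.01, with 15 lower. Among genes with at least 100 reads, however, the SLC25 median was -0.04, the plasma membrane median -0.07 and the endomembrane median -0.11, so that the difference between plasma membrane and SLC25 shrank to -0.02. Mitochondrial carriers that go by other symbols, a list chosen after values were seen, were lower in 9 of 11 genes with at least 20 reads (median -0.13), below the SLC25 median.

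The same direction was seen in membrane proteins outside the family. The 493 other protein-coding genes with at least 4 hydrophobic segments had a median of -0.06, with 59.4% lower. The 7041 with no such segment had a median of 0.03, with 44.8% lower. The median of the plasma membrane carriers was thus near that of other multi-pass proteins. GC content differed as well. The median transcript GC content was 52.8% in plasma membrane carriers, 48.4% in SLC25 carriers, 48.9% in endomembrane carriers and 48.0% in all 10263 genes. Across the 7195 protein-coding genes with at least 100 reads, which share both libraries and are not independent, the ratio and GC content had a Spearman correlation of -0.22. Across the 118 members of that depth it was -0.12. The median of genes of like GC content and level was also subtracted, for members with at least 20 reads. The medians were then -0.09 for plasma membrane carriers, -0.08 for endomembrane carriers and 0.00 for SLC25 carriers. Plasma membrane and SLC25 carriers differed by -0.09 in these values. Whether GC content contributes to the difference between classes was not tested.

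**Figure D3:**
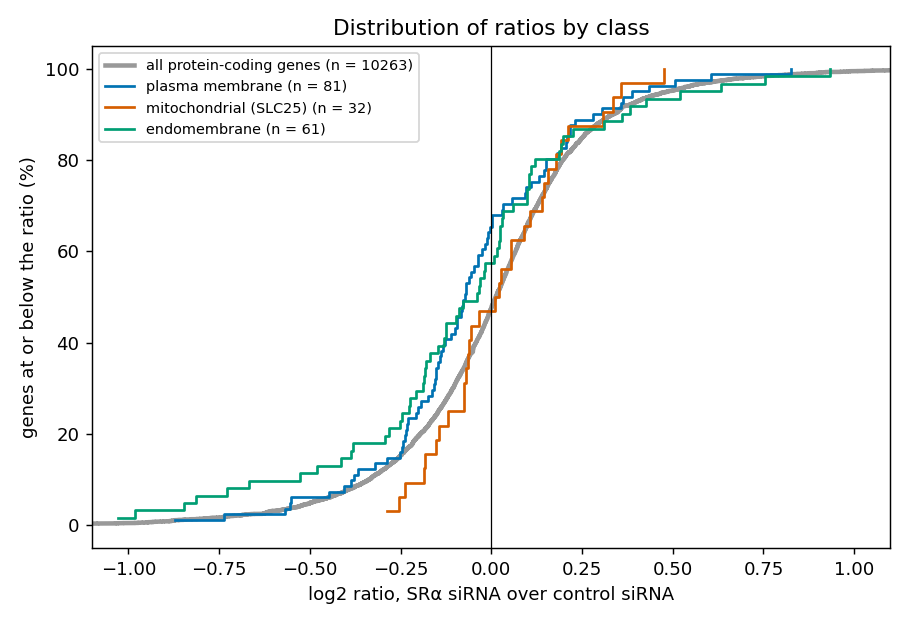
Cumulative share of genes (%) at or below each log2 ratio for all 10263 protein-coding genes, 81 plasma membrane, 32 mitochondrial and 61 endomembrane carriers. The plasma membrane curve lies above the grey curve around a ratio of 0, the mitochondrial curve follows it near 0 but has no tail below -0.29, and of the 3 carrier classes the endomembrane curve has the longest lower tail.

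Amino acid carriers make up the largest group at the plasma membrane. With their lysosomal relatives they numbered 29, of which 17 were lower (median -0.07). SLC3A2 pairs with a light chain to form an exchanger, and it had 1839 and 2562 reads, or 743 and 666 CPM, a log2 ratio of -0.16 (-0.24 to -0.07). Among its light chains SLC7A5 (LAT1), which imports large neutral amino acids, had 190 and 176 CPM, a log2 ratio of -0.11 (-0.28 to 0.06). The cystine importer SLC7A11 (xCT) had 77.9 and 88.4 CPM, a log2 ratio of 0.18 (-0.08 to 0.44), and SLC7A6 had 34.3 and 40.3 CPM, at 0.23 (-0.16 to 0.63). The heavy chain was thus lower beyond its counting error, and the light chains lay on both sides of a ratio of 1, each within its counting error. SLC7A6 overlaps SLC7A6OS on the opposite strand, which had 21.4 and 24.9 CPM, a log2 ratio of 0.22, and whether counting used strand is not given in the sources used here.

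Other importers with many reads differed little. SLC1A5, which brings in glutamine, had 536 and 506 CPM, a log2 ratio of -0.08 (-0.19 to 0.02), and SLC38A2 (SNAT2) had 567 and 562 CPM, at -0.01 (-0.11 to 0.09). The cationic amino acid carrier SLC7A1 had 354 and 338 CPM, at -0.07 (-0.19 to 0.06), and the branched-chain amino acid carrier SLC6A15 had 321 and 334 CPM, at 0.06 (-0.07 to 0.19). At this depth no difference beyond counting error was detectable for these 4. Larger differences, in both directions, came from genes with fewer reads. On the lower side SLC38A6 had 26 and 24 reads, for a log2 ratio of -0.74 (-1.61 to 0.11). SLC38A3 had 21 and 22 reads, at -0.56 (-1.50 to 0.37). SLC1A4, a carrier of serine and alanine, had 57 and 116 reads, for a log2 ratio of 0.39 (-0.08 to 0.87), and the creatine carrier SLC6A8 had 58 and 116 reads, at 0.36 (-0.10 to 0.84). SLC36A4, a proton-independent carrier of proline and tryptophan, had 46 and 109 reads, or 18.6 and 28.3 CPM, at 0.60 (0.10 to 1.14). It was the only plasma membrane carrier whose interval lay above a ratio of 1. Of the 118 members with at least 100 reads it was also the only gene that was 1.5-fold higher. The lysosomal SLC38A7, an exporter of glutamine and asparagine, had 18 and 54 reads, or 7.27 and 14.0 CPM, at 0.93 (0.16 to 1.81), the highest ratio of all 182 members. SLC38A9, the lysosomal arginine sensor that signals to mTORC1, had 36.7 and 41.8 CPM, at 0.19 (-0.19 to 0.57).

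Carriers of lactate were dominated by SLC16A1, which had 5473 and 8055 reads, the most of any member, or 2210 and 2093 CPM. Its log2 ratio was -0.08 (-0.13 to -0.03), so that it was 0.947 of its control level, a small difference that the depth of this gene resolves from counting error. SLC16A13, an intracellular relative, had 22 and 17 reads, at -0.98 (-2.01 to -0.03). MCT1 needs basigin (BSG) to reach the cell surface, and BSG had 1670 and 1612 CPM, a log2 ratio of -0.05 (-0.11 to 0.01). Without SLC16A1 the plasma membrane class as a whole had 15708 and 23264 reads and the same log2 ratio, -0.07 (-0.10 to -0.04).

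Sugar carriers and their sodium-coupled relatives (SLC2, SLC5, SLC45 and SLC50) were lower in 8 of 10 members, with a median of -0.24, and all 6 at the plasma membrane were lower. Their summed reads were 999 and 1345, a log2 ratio of -0.21 (-0.33 to -0.09). The main glucose importer SLC2A1 (GLUT1) had 222 and 300 reads, or 89.7 and 78.0 CPM, at -0.20 (-0.46 to 0.06). SLC5A6, which takes up biotin and pantothenate, had 195 and 167 CPM, at -0.23 (-0.40 to -0.06), and alone held 484 and 641 of the summed reads. The intracellular glucose carrier SLC2A6 had 28 and 21 reads, or 11.3 and 5.46 CPM, at -1.03 (-1.94 to -0.18), and was the 1 member past 2-fold. SLC2A3 (GLUT3), with 13 and 5 reads, fell short of the limit of 20 reads and is not a member. Also just short were SLC48A1 with 19 reads in all, SLC12A8 and SLC9A9 with 17 each, and just inside were SLC22A23, SLC35E4 and SLC5A5 with 23 each and SLC66A3 with 24.

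Zinc carriers come in 2 families with opposite directions of transport. ZIP proteins (SLC39) bring zinc into the cytosol, and 9 of 10 were lower, with a median of -0.10 and summed reads of 2127 and 3076, a log2 ratio of -0.10 (-0.18 to -0.02). Exons of SLC39A1 (ZIP1) overlap those of AL358472.7 on the same strand and CREB3L4 on the opposite strand. SLC39A1 had 292 and 347 reads, or 118 and 90.2 CPM, at -0.39 (-0.62 to -0.16), the only ZIP gene whose interval lay off a ratio of 1. The most-read ones were close to 0, with SLC39A14 at 222 and 214 CPM (log2 ratio -0.06), SLC39A6 at 183 and 176 CPM (-0.06) and SLC39A10 at 147 and 145 CPM (-0.03). Without SLC39A1 the other 9 ZIP genes had 1835 and 2729 reads, for a log2 ratio of -0.06 (-0.15 to 0.02), which includes a ratio of 1. ZnT proteins (SLC30) take zinc out of the cytosol, and 3 of 6 were lower, with a median of 0.00. Among them SLC30A1, the exporter at the cell surface, had 38.8 and 33.5 CPM, at -0.21 (-0.60 to 0.19), and the Golgi SLC30A7 had 94.5 and 96.2 CPM, at 0.03 (-0.21 to 0.27). The copper importer SLC31A1 (CTR1) had 78.7 and 91.5 CPM, at 0.22 (-0.04 to 0.48).

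Carriers of chloride, bicarbonate, protons, sodium and calcium were centred on 0, with 8 of 20 lower and a median of 0.02. The sodium-potassium-chloride carrier SLC12A2 (NKCC1) had 146 and 136 CPM, at -0.10 (-0.30 to 0.10), and the anion exchanger SLC4A2 had 151 and 152 CPM, at 0.00 (-0.19 to 0.19). The endosomal SLC12A9 had 41.2 and 31.4 CPM, at -0.39 (-0.78 to 0.01). All 5 sodium-proton exchangers (SLC9) had ratios slightly above 1, from 0.02 to 0.23 on the log2 scale, on summed reads of 212 and 346, too few to set them apart from a ratio of 1 (0.07, interval -0.18 to 0.32).

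Carriers of vitamins, nucleosides and choline were lower in 8 of 14 members, with a median of -0.08. The nucleoside carrier SLC29A2 (ENT2) had 70 and 74 reads, or 28.3 and 19.2 CPM, at -0.55 (-1.05 to -0.06), and its relative SLC29A1 (ENT1) had 126 and 124 CPM, at -0.02 (-0.23 to 0.19). SLC29A2 had the lowest ratio among plasma membrane carriers with at least 100 reads. The ascorbate carrier SLC23A2 had 45.6 and 35.1 CPM, at -0.38 (-0.75 to -0.01), and SLC44A2, of the choline carrier family, had 40.0 and 32.0 CPM, at -0.32 (-0.72 to 0.07). The folate carrier SLC19A1 had 158 and 161 CPM, at 0.03 (-0.15 to 0.22). The phosphate carrier SLC20A1 had 127 and 115 CPM, at -0.14 (-0.35 to 0.07).

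The largest family placed on internal membranes was SLC35, whose best-known members bring nucleotide sugars into the ER and Golgi for glycosylation. Of its 21 members 18 were lower, with a median of -0.19. Summed over the family the reads were 1536 and 2095, a log2 ratio of -0.19 (-0.28 to -0.09). SLC35C2, linked to GDP-fucose and Notch fucosylation, had 60 and 56 reads, or 24.2 and 14.6 CPM, at -0.73 (-1.29 to -0.19). That was the lowest ratio among the 118 members with at least 100 reads. SLC35A3, a carrier of UDP-N-acetylglucosamine, had 24.6 and 18.5 CPM, at -0.41 (-0.93 to 0.10). The most-read members, SLC35B1, which carries ATP into the ER, and SLC35F2, had 89.7 and 79.8 CPM, at -0.17 (-0.42 to 0.09), and 65.4 and 60.0 CPM, at -0.12 (-0.42 to 0.17). The 3 members above a ratio of 1 were SLC35A5 with 20.6 and 23.6 CPM (log2 ratio 0.20), SLC35E3 with 12.5 and 16.4 CPM (0.38) and SLC35G2 (0.03), each within its counting error. Without SLC35C2 the other 20 had 1476 and 2039 reads, for a log2 ratio of -0.17 (-0.27 to -0.07). The SLC35, SLC39 and sugar groups were singled out after their values were seen.

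Other endomembrane carriers went both ways. SLC33A1, which brings acetyl-CoA into the ER, had 105 and 91.2 CPM, at -0.21 (-0.44 to 0.03). SLC37A4, the glucose 6-phosphate carrier of the ER, had 80.0 and 86.3 CPM, at 0.11 (-0.15 to 0.37), and SLC37A3 had 73.9 and 72.2 CPM, at -0.03 (-0.31 to 0.24). The lysosomal sialic acid exporter SLC17A5 had 99 and 110 reads, or 40.0 and 28.6 CPM, at -0.48 (-0.89 to -0.08), and the lysosomal SLC49A4 had 17.4 and 21.6 CPM, at 0.31 (-0.24 to 0.88). The 5 fatty acid transport proteins (SLC27), which also activate fatty acids and of which 3 were classed as endomembrane and SLC27A4 and SLC27A6 as of mixed location, were all above a ratio of 1, with summed reads of 298 and 509 and a log2 ratio of 0.14 (-0.07 to 0.35).

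**Figure D4:**
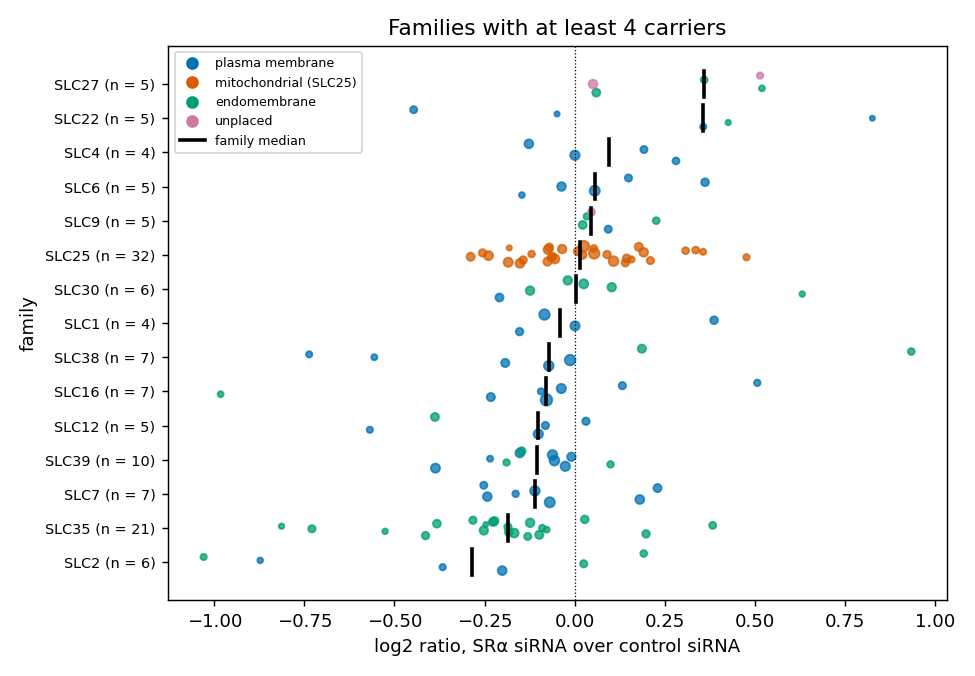
Log2 ratio of each member (horizontal axis) in the 15 families with at least 4 carriers (vertical axis), with larger points for more reads, color for the class and a black bar for the family median. SLC35 and SLC2 medians lie lowest, SLC25 is centred near 0, and SLC27 and SLC22 medians lie highest on few reads. The spread is narrowest in SLC9 and SLC39.

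Of the 3 classes the mitochondrial carriers had the narrowest range of ratios, but some families had a smaller spread. The standard deviation of log2 ratios was 0.19 in SLC25, 0.14 in SLC39 and 0.08 in SLC9. Log2 ratios of the 32 SLC25 genes ran from -0.29 (SLC25A22) to 0.48 (SLC25A21). None reached 1.5-fold, against a background of 3.29% lower and 3.21% higher. Every counting interval included a ratio of 1, against a background of 3.65% wholly below and 6.07% wholly above. At such shares only a few of 32 genes would pass. UCP2, a carrier of the SLC25 kind left out by its symbol, lay below the SLC25 range, at -0.34 (-0.47 to -0.21). SLC25A5 had 1893 and 2994 reads, or 764 and 778 CPM, a log2 ratio of 0.03 (-0.06 to 0.11). The phosphate carrier SLC25A3, which supplies phosphate for ATP synthesis, had 1360 and 2194 reads, or 549 and 570 CPM, at 0.05 (-0.04 to 0.15). SLC25A13, an aspartate-glutamate carrier of the malate-aspartate shuttle, had 205 and 221 CPM, at 0.11 (-0.05 to 0.27). These 3 carried 3760 of the 6456 SLC25 reads in control cells. The partner of SLC25A13 in that shuttle, the oxoglutarate carrier SLC25A11, had 123 and 108 CPM, at -0.18 (-0.40 to 0.03).

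The remaining SLC25 genes lay on both sides. The glutamate carrier SLC25A22 had 43.2 and 35.3 CPM, at -0.29 (-0.67 to 0.09), SLC25A24, which exchanges ATP-magnesium for phosphate, had 102 and 86.5 CPM, at -0.24 (-0.480 to 0.002), and SLC25A30 had 24.2 and 20.3 CPM, at -0.26 (-0.76 to 0.25). On the other side were SLC25A32, linked to folate and flavin transport, with 64.6 and 73.8 CPM at 0.19 (-0.09 to 0.48), the outer membrane SLC25A46 with 35.1 and 39.8 CPM at 0.18 (-0.21 to 0.58) and SLC25A14 with 16.2 and 18.7 CPM at 0.21 (-0.37 to 0.81). The peroxisomal SLC25A17 had 93.7 and 90.2 CPM, at -0.05 (-0.30 to 0.19).

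**Figure D5:**
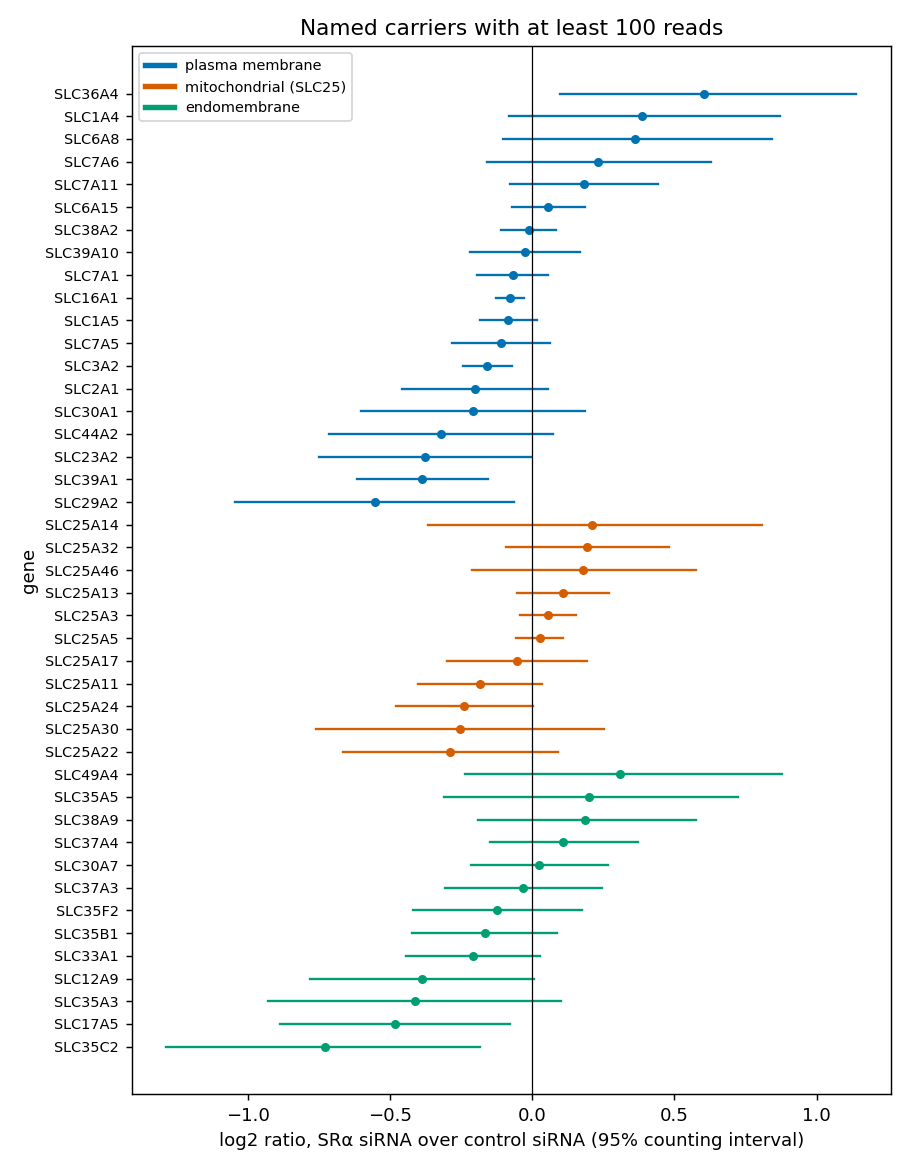
Log2 ratio (point) and 95% counting interval (line) for carriers picked by the naming rule with at least 100 reads, grouped by class. Intervals of the mitochondrial carriers shown all include 0, while 5 plasma membrane and 2 endomembrane carriers shown lie wholly below it and SLC36A4 wholly above. SLC5A6, which the rule did not pick, is not drawn and also lay below.

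Genes of the routes by which carriers reach their membranes were counted from separate lists. Of 18 genes of the ER route (SRP54, the SRP receptor, SEC61, SEC62, SEC63 and the ER membrane protein complex) 11 were lower, with a median of -0.09, and 1, SRPRA, was at least 1.5-fold lower. Both the count and the median include SRPRA, the target of the siRNA, whose lower level is set by the design. The channel subunit SEC61A1 had 660 and 611 CPM, at -0.11 (-0.20 to -0.02). Of 13 measured genes of the mitochondrial carrier route 5 were lower, with a median of 0.06. The receptor TOMM70, which binds carrier precursors, had 190 and 216 CPM, at 0.18 (0.02 to 0.35), TIMM22, the inner membrane insertase, had 55.3 and 57.7 CPM, at 0.06 (-0.25 to 0.38), and the pore TOMM40 had 99.7 and 81.6 CPM, at -0.29 (-0.53 to -0.04). Of 10 partners of plasma membrane carriers 4 were lower, with a median of 0.10. Among them the scaffold NHERF2 had 28.3 and 20.01 CPM, at -0.50 (-0.98 to -0.01).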

How the data were processed

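The authors deposited raw counts of reads, in whole numbers by Ensembl gene ID, for 1 control siRNA and 1 SRα siRNA library of HEK293T cells. TRIzol extraction and a stranded mRNA kit were used, per the labels' protocols. Per the submitters' processing notes cutadapt, STAR 2.5.2b and the hg19 genome were used, while the counting program, whether it used strand, and the gene annotation were not given in the sources used here. The 5 summary lines that name no gene were left out. They include 10840225 and 14433595 alignments that were not unique, so genes with close copies can be under-counted.

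Gene names, types, exonic lengths, overlaps of exons and coding sequences were taken from GENCODE 29 (GRCh38) by gene ID, and no hg19 coordinates were used. Exons of 53 of the 182 members overlap those of another protein-coding gene, which can affect their counts. Counts were scaled by TMM factors (edgeR 4.0.16) to effective library sizes of 2476276 and 3847820, and the log2 ratio (SRα siRNA over control siRNA) used a prior count of 0.5. Intervals are exact Clopper-Pearson 95% intervals of the 2 counts given their sum. They cover counting error only, and reads without molecular identifiers are not independent molecules. The calculation was checked on simulated counts.

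Genes were named by rule: the 6 most-read of each class, the 4 highest and 4 lowest ratios of each class among genes with at least 100 reads, members at least 1.5-fold apart with an interval off 1, a short list of partners and textbook carriers, and those nearest the 20-read limit. Other named genes were chosen after their values were seen. A few genes are not reported here. Members, classes and lists were chosen with earlier results of these data known. Alternatives were other library scalings (DESeq2 1.42.0 size factors, upper quartile, totals), other filters, a prior count of 2, subtraction of the median of genes of like GC content and level, and other memberships.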

Additional observations from a re-analysis of the deposited data

How the results depend on the processing

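No paired analysis was possible because each group has 1 library, and for the same reason no library could be left out in turn. Of 120 alternative values for the summaries, 98 stayed near the value reported and 22 moved. Plasma membrane carriers had a lower median than SLC25 carriers under every alternative run, by -0.12 to -0.02. With library totals only, the medians were -0.092 over all members and -0.11 at the plasma membrane, the summed plasma membrane ratio was -0.11, and 2 members were at least 2-fold lower. With no filter beyond 1 read the plasma membrane median was -0.10, 18 genes were at least 2-fold higher and 23 lower, and 25 were at least 1.5-fold higher and 33 lower. With at least 100 reads the SLC25 median was -0.045, the endomembrane median -0.11 and the difference between plasma membrane and SLC25 -0.024, while 0 were 2-fold lower and 1 was 1.5-fold higher and 1 lower. With a mean of at least 1 CPM, 1 was 2-fold higher and 5 lower, and 15 were 1.5-fold lower. With a prior count of 2, 0 were 2-fold lower. After subtraction of the median at like GC content and level, 1 was 2-fold higher and 0 lower. With classes by family number alone the endomembrane median was -0.11. The cause of these moves was not tested, apart from the filters, which change the genes counted. Leaving out the most-read member of each class was chosen after seeing the data, and gave summed ratios of -0.07 at the plasma membrane, 0.00 for SLC25 and -0.08 for endomembrane carriers. For single named genes 464 of 465 alternative values stayed near the main one and none of those called turned direction. The exception was SLC16A1, at -0.14 after the GC subtraction. Some genes with wider counting intervals changed by more without being counted as moved. Among them SLC35C2 ranged from -0.77 to -0.56, where it was less than 1.5-fold lower, and SLC44A2 from -0.36 to -0.22. The sign of the log2 ratio changed in 6 of the 465 values, in 4 genes: SLC25A5, SLC25A3, SLC30A7 and SLC6A15. Depth limits what can be seen, since 64 of 182 members had fewer than 100 reads.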

Other observations

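Some mitochondrial carriers have kept symbols outside the SLC series, and these were read as a list chosen after values were seen. Of 12 such genes 11 had at least 20 reads, and 9 of the 11 were lower, with a median log2 ratio of -0.13 and summed reads of 3672 and 5146, a log2 ratio of -0.15 (95% counting interval -0.21 to -0.09). UCP2, an inner membrane carrier of the SLC25 kind, had 867 and 1065 reads, or 350 and 277 CPM, a log2 ratio of -0.34 (-0.47 to -0.21). The serine carrier SFXN1 had 386 and 354 CPM, at -0.13 (-0.246 to -0.004), and MPC1, a subunit of the pyruvate carrier, had 50.9 and 43.1 CPM, at -0.24 (-0.58 to 0.11). LETM1, an inner membrane ion exchanger, had 212 and 218 CPM, at 0.03 (-0.12 to 0.19). The ratios of these genes lay below the SLC25 median of 0.02 in all but LETM1 and SFXN3.

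A similar list of 13 carriers of the ER route with other symbols had 8 with at least 20 reads, of which 4 were lower, with a median of -0.01. Among SLC entries that do not code for protein, the divergent transcript SLC12A2-DT had 26 and 52 reads and the antisense transcript SLC16A1-AS1 had 26 and 33, while 77 of 84 SLC pseudogenes had no read in either library.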
